A study of Danio rerio with 11 samples.

Results

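The endothelial genes described here are 35 listed zebrafish genes of blood and lymphatic vessels, looked up in the raw counts by zebrafish symbol, synonym or the symbol of the human ortholog. Of the 35, 21 matched by symbol, 2 by synonym (pecam1 as pecam1a and esama as ESAM) and 12 by ortholog symbol. Together they gave 38 of the 23617 gene identifiers in the table, because cldn5b, efnb2a and notch1b each share the symbol of their human ortholog (CLDN5, EFNB2 and NOTCH1) with a second identifier. Which identifier of such a pair belongs to the listed gene cannot be told apart from the symbols, so both are given and their values are uncertain. The list does not sort its genes, which were grouped here into 23 general, 5 arterial and 7 venous or lymphatic vessel genes. All 38 identifiers passed the filter on low counts.

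RNA was sequenced from tails, the part of the embryo behind the yolk sac, of zebrafish at 24 hours post fertilisation (hpf). Homozygosity and the kind of lesion are not stated in the labels, which give 4 groups: 36433 mutant (3 libraries), 36433 wildtype (3 libraries), 23095 mutant (3 libraries, replicates 1, 2 and 4) and 23095 wildtype (2 libraries). The numbers 36433 and 23095 are taken here as the names of lines carrying different mutations in lsd1, the gene of a histone demethylase; wildtypes were siblings, and each library was a pool of 5 tails. Nothing in the labels says that the pools came from separate clutches, so p-values measure only the spread between these pools.

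Endothelial cells line all blood and lymphatic vessels. They arise from lateral mesoderm under early factors such as Npas4l and Etv2, sprout and survive through receptors for vascular endothelial growth factor (VEGF) and angiopoietin, and are held together by junction proteins such as VE-cadherin. Notch signalling marks arterial identity, whereas the receptors Flt4 and Ephb4 and the scavenger receptors Stab1 and Stab2 mark veins and the lymphatic vessels that sprout from them. In the tail of a fish embryo of this age, the dorsal aorta and the caudal vein carry the flow, and the first vessels grow between the somites.

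Library totals ran from 8204459 counts (23095 mutant replicate 2) to 17195875 counts. The 38 identifiers took 0.186% to 0.216% of counts in the 36433 mutants and 0.154% to 0.185% in the 36433 wildtypes. In line 23095 they took 0.225% to 0.269% in the mutants and 0.172% and 0.175% in the wildtypes. In every library the 2 NOTCH1 identifiers and stab2 had the most counts of the 38. In 36433 mutant replicate 1 they had 3654, 3421 and 3258 of 22672 counts. These shares are therefore not a measure of vessel cells alone. Levels are given below in CPM (counts scaled to library size) after TMM scaling; they are not set against each other between genes, since they are not divided by gene length. The targeted gene, KDM1A in the symbol table, had 34.2 to 36.9 CPM in the 36433 mutants, against 135 to 162 CPM in the 36433 wildtypes, but 130 to 170 CPM in the 23095 mutants, against 124 and 142 CPM in the 23095 wildtypes. Its RNA level was lower in the libraries labelled mutant in line 36433 and checks nothing in line 23095, since a lesion need not lower the transcript.

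A gene was called where its adjusted p was under 0.05 in the quasi-likelihood test of edgeR, with Benjamini-Hochberg adjustment over the 20886 genes tested. In line 36433, 1 of the 38 identifiers was called, vwf, which was higher in mutants; 0.168% of all genes tested were called in this comparison, 0.12% as higher and 0.0479% as lower. In line 23095, 4 were higher (vwf, tek, sox7 and aplnra) and 2 lower (pecam1 and plvapb), 15.8% of the 38 against 1.63% of all genes (0.694% higher, 0.934% lower). Averaged over both lines, 6 were higher (among them vwf, tek, sox7, clec14a and rasip1) and 1 lower (plvapb), 18.4% against 2.33% (1.3% higher, 1.03% lower). All 9 identifiers called by edgeR in any of these comparisons were general vessel genes, and vwf was the only one it called in both lines. DESeq2 also called plvapb as lower in both, where it called 39 (line 36433) and 553 (line 23095) of all genes as lower. None of the 6 calls of line 23095 held when the libraries of that line were fitted alone. None of the 7 arterial or 7 venous and lymphatic identifiers was called in these comparisons, by edgeR or by DESeq2. On average 3 of the 7 arterial and 1 of the 7 venous and lymphatic identifiers had an unadjusted p under 0.05, where 17.4% of all genes did.

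**Figure D1:**
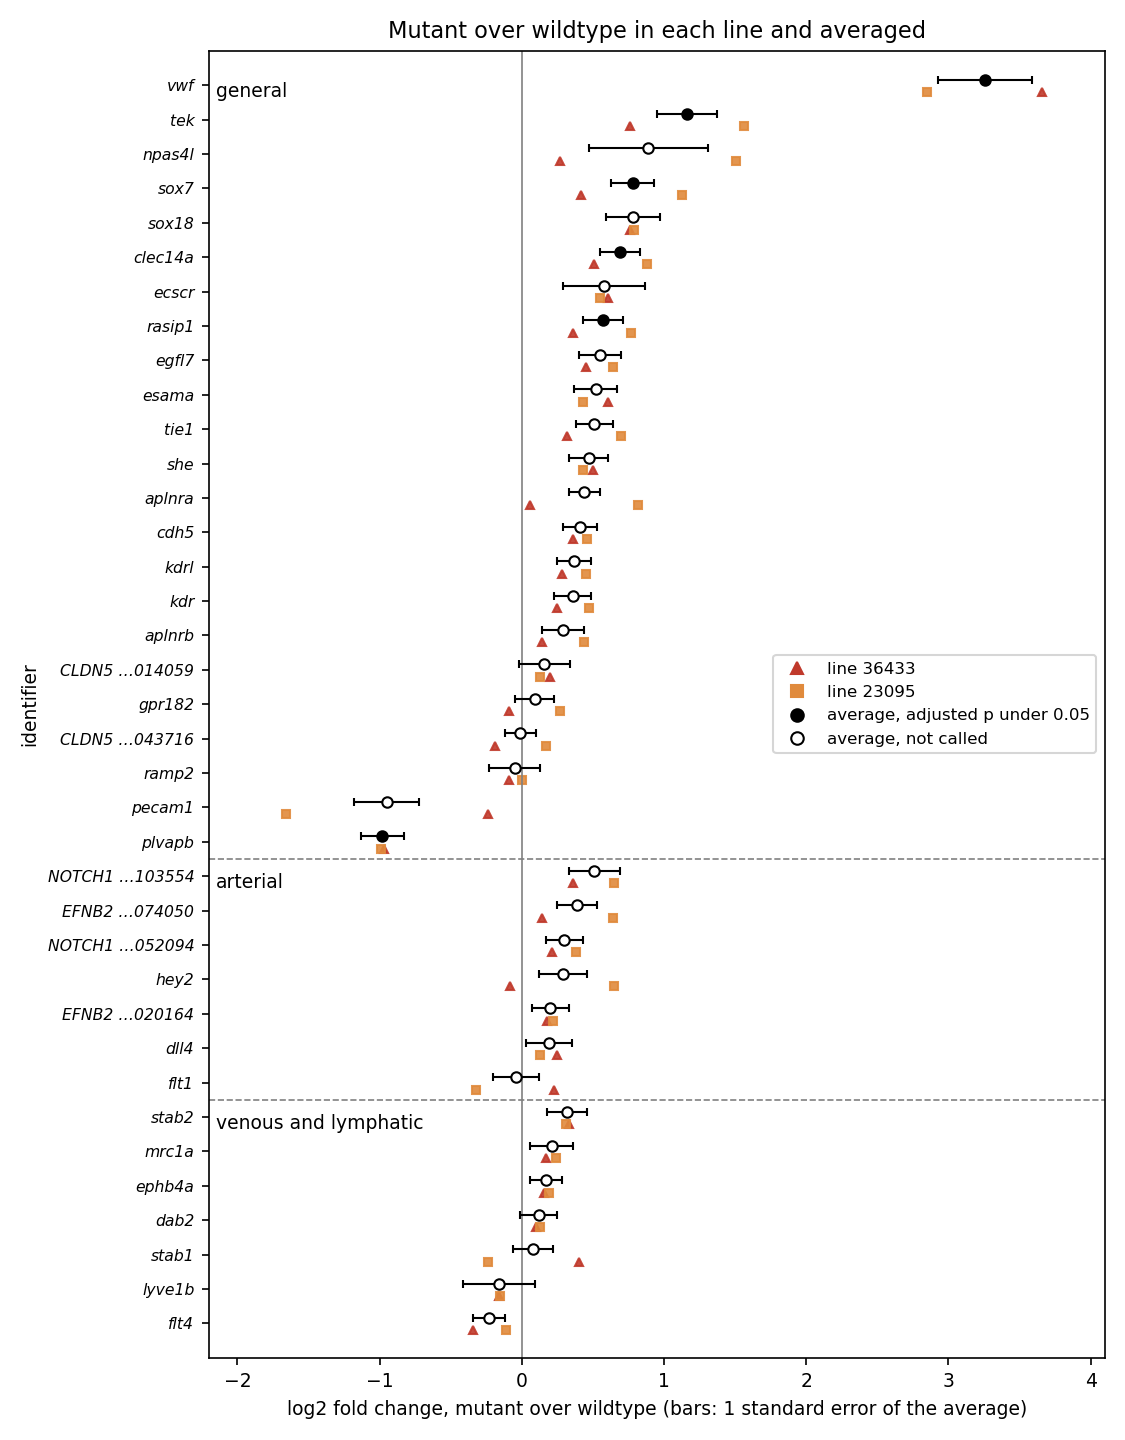
Log2 fold change of 37 of the 38 identifiers, mutant over wildtype: triangles for line 36433, squares for line 23095, and circles with bars of 1 standard error for the average over both lines (filled where the adjusted p was under 0.05). The vwf values lie between 2.85 and 3.66, plvapb and pecam1 lie at about -1 on average, and the arterial and the venous and lymphatic averages lie between -0.23 and 0.51.

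The largest difference was that of vwf (ENSDARG00000077231), the gene of von Willebrand factor, a large glycoprotein that vessel walls and thrombocytes store and release to catch platelets. It had 6.32, 9.63 and 9.12 CPM in the 36433 mutants, against 0.513, 1.08 and 0.384 CPM in the 36433 wildtypes, and 10.6, 5.05 and 15.7 CPM in the 23095 mutants, against 1.33 and 1.63 CPM in the 23095 wildtypes. Every mutant library lay above every wildtype library, and the lowest mutant value was that of 23095 mutant replicate 2, the shallowest library. The raw counts behind these levels were 81, 154 and 126 in the 36433 mutants and 8, 16 and 6 in the 36433 wildtypes, and 178, 39 and 279 in the 23095 mutants and 21 and 24 in the 23095 wildtypes.

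In log2 fold change, vwf rose by 3.66 in line 36433 (standard error 0.45, adjusted p = 0.0045) and by 2.85 in line 23095 (standard error 0.48, adjusted p = 0.0232). Averaged over both lines it was 9.55-fold higher in mutants (adjusted p = 0.000477). The call in line 36433 and that in the average held when any 1 of the 11 libraries was left out (adjusted p up to 0.0312 and 0.00897). In line 23095 it was lost without mutant replicate 4, wildtype replicate 1 or wildtype replicate 2 (adjusted p up to 0.274). In pooled tissue, a different number of vessel cells and a different amount of RNA per vessel cell cannot be told apart, for this gene or any below.

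Thrombocytes, the other known source of vwf, were followed by a list of 5 identifiers (mpl, gp9, GP1BB and 2 of THBS1). Their summed level was 110 to 130 CPM in the 36433 mutants, against 158 to 183 CPM in the 36433 wildtypes, and 86 to 162 CPM in the 23095 mutants, against 208 and 209 CPM in the 23095 wildtypes. The sum was lower in all mutants than in the wildtypes of their line, and most of it was THBS1, which many other cells also make. Of the defining thrombocyte genes, gp9 did not follow the sum, and GP1BB ran in its direction in line 36433 only. A further one, itga2b, had no match. The gene gp9 averaged 0.549 CPM in the 36433 mutants and 0.367 CPM in the 36433 wildtypes, and 1.23 CPM in the 23095 mutants and 0.8 CPM in the 23095 wildtypes, with overlap in both lines. GP1BB averaged 2.41 CPM in the 36433 mutants and 3.29 CPM in the 36433 wildtypes, and 2.96 CPM in the 23095 mutants and 1.69 CPM in the 23095 wildtypes, and overlapped in line 36433 only; neither gene was called (adjusted p = 0.641 and 0.808 on average). The receptor gene mpl, too low to be tested, stood at 0 to 0.477 CPM in mutants and 0 to 0.321 CPM in wildtypes, with 1 library of each at 0. On average edgeR called 1 of the 5 as lower, a copy of THBS1, where 1.03% of all genes were lower. DESeq2 called 1 as lower on average and 1 in line 23095, where it called 527 and 553 of all genes as lower. The part of thrombocytes in the vwf difference was not tested.

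**Figure D2:**
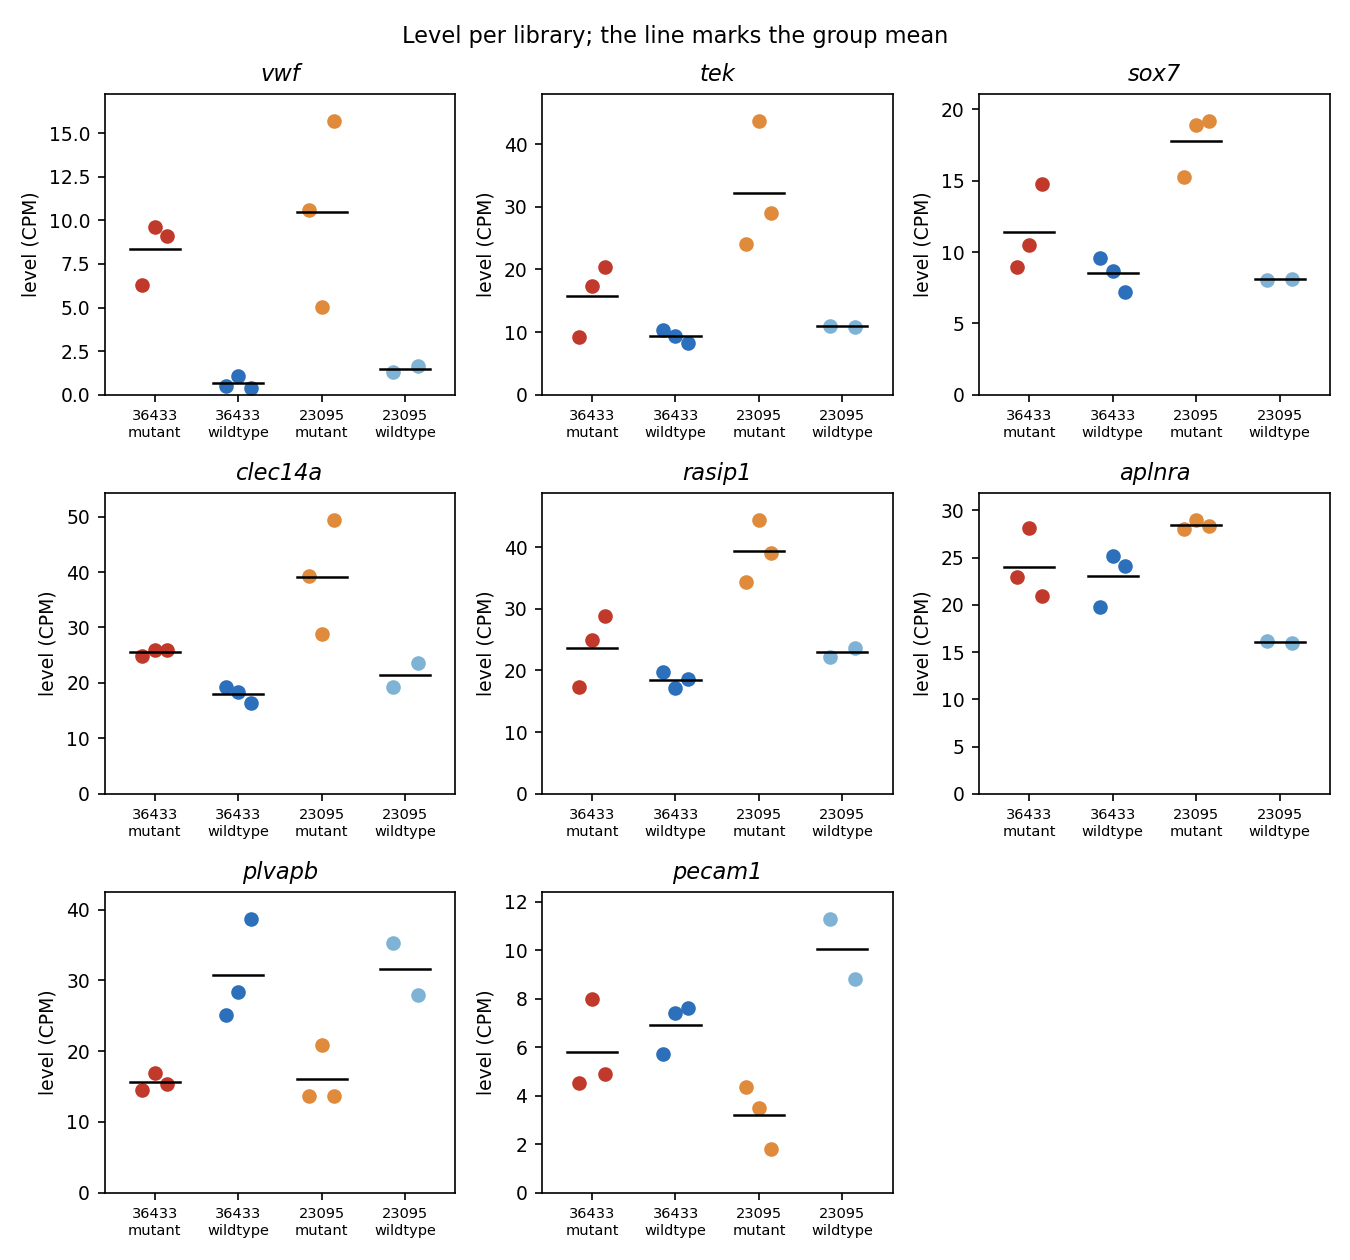
Level in CPM of 8 of the 9 identifiers called in any comparison of mutants with wildtypes, 1 point per library, with the group mean as a line. The mutant points of vwf lie between 5.05 and 15.7 CPM and all its wildtype points at or under 1.63 CPM; plvapb shows the opposite order in both lines, and aplnra and pecam1 separate without overlap in line 23095 and overlap in line 36433.

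Receptors of the vessel surface came next. The angiopoietin receptor gene tek (ENSDARG00000028663) had 9.29, 17.4 and 20.4 CPM in the 36433 mutants, against 10.4, 9.35 and 8.19 CPM in the 36433 wildtypes, and 24.1, 43.7 and 29.0 CPM in the 23095 mutants, against 11 and 10.8 CPM in the 23095 wildtypes. Mutant replicate 1 of line 36433 lay among its wildtypes, whereas in line 23095 the groups did not overlap. The log2 fold change of tek was 0.76 in line 36433 (standard error 0.27, adjusted p = 0.577) and 1.56 in line 23095 (standard error 0.31, adjusted p = 0.036), and it was 2.23-fold higher on average (adjusted p = 0.0154). The averaged call was lost without either 23095 wildtype (adjusted p up to 0.0933). In line 23095 it was lost without 36433 mutant replicate 2, 23095 mutant replicate 2 or 4, or either 23095 wildtype (up to 0.329). For the related receptor gene tie1, which works as a partner of Tek, the averaged log2 fold change was 0.51 (standard error 0.13, adjusted p = 0.0643).

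The C-type lectin gene clec14a (ENSDARG00000103533), which encodes a membrane glycoprotein of vessel walls, had 24.8, 25.9 and 26.0 CPM in the 36433 mutants, against 19.3, 18.4 and 16.3 CPM in the 36433 wildtypes, and 39.2, 28.8 and 49.4 CPM in the 23095 mutants, against 19.3 and 23.5 CPM in the 23095 wildtypes. The groups did not overlap in either line. It rose by 0.69 on average (standard error 0.14, adjusted p = 0.0237), a call that was lost without any one of the 36433 mutants, 36433 wildtype replicate 3 or either 23095 wildtype (adjusted p up to 0.171).

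The apelin receptor gene aplnra (ENSDARG00000002172), whose receptor guides vessel precursors and sprouts, was called in line 23095 and not in line 36433. It had 23.0, 28.1 and 20.9 CPM in the 36433 mutants, against 19.8, 25.2 and 24.1 CPM in the 36433 wildtypes, and 28.0, 29.0 and 28.3 CPM in the 23095 mutants, against 16.2 and 16 CPM in the 23095 wildtypes. The 36433 groups overlapped, and the 23095 wildtypes were the lowest of all libraries. The log2 fold change was 0.06 in line 36433 (adjusted p = 0.958) and 0.82 in line 23095 (standard error 0.17, adjusted p = 0.0378). The difference of the mutant effects was 0.76 (23095 minus 36433, standard error 0.23, adjusted p = 0.471) and was not called. The 23095 wildtypes themselves lay 0.52 lower than the 36433 wildtypes on the log2 scale (standard error 0.17, unadjusted p = 0.00969), which was not called either (adjusted p = 0.196). In line 23095 the call of aplnra was lost in 8 of the 11 leave-one-out fits, namely without any mutant of either line or either 23095 wildtype (adjusted p up to 0.352). Over the 11 fits the log2 fold change of aplnra in line 23095 stayed between 0.8 and 0.83. For its paralog aplnrb the averaged log2 fold change was 0.29 (standard error 0.15, adjusted p = 0.332).

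Of the transcription factors on the list, sox7 (ENSDARG00000030125) was called. Sox7 and Sox18 are related factors that act together in the separation of arteries from veins. For sox7 the libraries held 8.98, 10.5 and 14.8 CPM in the 36433 mutants, against 9.62, 8.67 and 7.23 CPM in the 36433 wildtypes, and 15.3, 18.9 and 19.2 CPM in the 23095 mutants, against 8.08 and 8.14 CPM in the 23095 wildtypes. The 23095 mutants were the 3 highest libraries, while mutant replicate 1 of line 36433 lay within its wildtypes. In line 23095 sox7 rose by 1.13 (standard error 0.23, adjusted p = 0.0375) and on average by 0.78 (standard error 0.15, adjusted p = 0.0235).

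Both calls of sox7 were lost in some fits without 1 library. Over these fits its log2 fold change stayed between 1.04 and 1.21 in line 23095 and between 0.66 and 0.84 on average. The averaged one was lost without 36433 mutant replicate 3, 36433 wildtype replicate 3, 23095 mutant replicate 4 or either 23095 wildtype (adjusted p up to 0.135). That of line 23095 was lost without 36433 mutant replicate 1 or 2, 23095 mutant replicate 2 or 4, or either 23095 wildtype (up to 0.346). For sox18 the averaged log2 fold change was also 0.78 (standard error 0.19, adjusted p = 0.0535), with mutants above wildtypes in both lines and no overlap, but it was not called. The early vessel and blood factor npas4l had 6.22 CPM in 23095 mutant replicate 2 and between 0.576 and 2.43 CPM in the other 10 libraries, and its averaged log2 fold change was 0.89 (standard error 0.42, adjusted p = 0.296), which was not called.

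A gene of lumen formation also rose on average, rasip1 (ENSDARG00000074829), whose protein binds Ras-family proteins and is needed for the opening of vessel lumens. It had 17.3, 25 and 28.8 CPM in the 36433 mutants, against 19.7, 17.1 and 18.6 CPM in the 36433 wildtypes, and 34.4, 44.4 and 39.1 CPM in the 23095 mutants, against 22.2 and 23.7 CPM in the 23095 wildtypes. Again 36433 mutant replicate 1 lay within its wildtypes. It rose by 0.57 on average (standard error 0.14, adjusted p = 0.0482), close to the threshold, and 8 of the 11 leave-one-out fits lost the call (adjusted p up to 0.242): those without 36433 mutant replicate 2 or 3, 36433 wildtype replicate 2 or 3, 23095 mutant replicate 2 or 4, or either 23095 wildtype.

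Among the genes with lower levels in mutants, plvapb was called. Plvap is the protein of the diaphragms that span pores and vesicles of the vessel wall. Levels of plvapb (ENSDARG00000045003) were 14.5, 16.9 and 15.4 CPM in the 36433 mutants, against 25.1, 28.4 and 38.7 CPM in the 36433 wildtypes, and 13.7, 20.9 and 13.7 CPM in the 23095 mutants, against 35.3 and 27.9 CPM in the 23095 wildtypes. All mutants lay under all wildtypes. On the log2 scale plvapb fell by 0.99 in line 23095 (standard error 0.23, adjusted p = 0.0487) and by 0.98 on average (standard error 0.15, adjusted p = 0.00904); in line 36433 its log2 fold change was -0.97 (standard error 0.21, adjusted p = 0.127). The averaged call was lost without 23095 wildtype replicate 1 (adjusted p = 0.0634). That of line 23095 was lost in 8 of 11 such fits, without any 36433 mutant, 36433 wildtype replicate 2, 23095 mutant replicate 1 or 4, or either 23095 wildtype (adjusted p up to 0.454).

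The gene listed as pecam1 (ENSDARG00000060263) encodes an adhesion molecule of vessel walls that platelets and leukocytes also carry. It had 4.53, 8.01 and 4.92 CPM in the 36433 mutants, against 5.71, 7.40 and 7.61 CPM in the 36433 wildtypes, and 4.35, 3.50 and 1.81 CPM in the 23095 mutants, against 11.3 and 8.81 CPM in the 23095 wildtypes. Mutant replicate 2 was the highest of the 36433 libraries, whereas the 23095 groups did not overlap. It fell by 1.66 in line 23095 (standard error 0.34, adjusted p = 0.0375), and in line 36433 its log2 fold change was -0.24 (standard error 0.31, adjusted p = 0.904). The difference of these effects was -1.42 (standard error 0.46, adjusted p = 0.514) and was not called, nor was the average of -0.95 (adjusted p = 0.051). The call in line 23095 was lost without 36433 mutant replicate 1 or 3, 23095 mutant replicate 2 or 4, or either 23095 wildtype (adjusted p up to 0.368).

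Leukocyte genes are given beside plvapb and pecam1. The summed level of 11 identifiers of neutrophil and macrophage genes was 15.1 to 25.6 CPM in the 36433 mutants, against 28.3 to 54.6 CPM in the 36433 wildtypes, and 9.82 to 16.6 CPM in the 23095 mutants, against 45.3 and 56.6 CPM in the 23095 wildtypes. All mutants lay under all wildtypes in this sum too. Of the 11, 9 passed the filter on low counts. In line 23095, 4 of these 9 were called, all lower (LCP1, ptprc and 2 identifiers of MFAP4, a symbol that 5 identifiers share), where 0.934% of all genes were lower. None was called in line 36433, where 6 had an unadjusted p under 0.05 (6.75% of all genes). DESeq2 called 2 as lower in line 36433, where it called 39 of all genes as lower. In line 23095 it called 8 as lower, where it called 553 of all genes as lower. The myeloid factor gene SPI1 ran the other way, with a mean of 3.45 CPM in the 36433 mutants, against 1.88 CPM in the 36433 wildtypes, and of 2.99 CPM in the 23095 mutants, against 1.79 CPM in the 23095 wildtypes, with overlap in both lines and no call (average 0.82, standard error 0.31, adjusted p = 0.185). An MFAP4 identifier that was not tested (ENSDARG00000089667) averaged 0.349 CPM in the 36433 mutants and 0.195 CPM in the 36433 wildtypes. The neutrophil gene lyz was at 0 in 1 library, a 23095 mutant, and 3 of the MFAP4 identifiers were at 0 in some mutants and in no wildtype. Their part in the lower levels of pecam1 and plvapb was not tested.

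The other 15 general identifiers were not called in any comparison of mutants with wildtypes, and their averaged log2 fold changes ran from -0.05 to 0.89 with standard errors of 0.11 to 0.42. The VEGF receptor gene kdrl had 81.7, 80.9 and 79.4 CPM in the 36433 mutants, against 79.8, 59.3 and 60.4 CPM in the 36433 wildtypes, and 111, 86.8 and 118 CPM in the 23095 mutants, against 71.1 and 82.5 CPM in the 23095 wildtypes. The 36433 wildtype replicate 1 reached the mutants of its line, and in line 23095 the groups stood apart. Its averaged log2 fold change was 0.37 (standard error 0.12, adjusted p = 0.135).

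The VE-cadherin gene cdh5, the standard junction marker of vessels, had 93.2, 109 and 116 CPM in the 36433 mutants, against 77.7, 77.4 and 92.7 CPM in the 36433 wildtypes, and 132, 117 and 166 CPM in the 23095 mutants, against 103 and 98.2 CPM in the 23095 wildtypes. The groups did not overlap in either line, narrowly so in line 36433. Its averaged log2 fold change was 0.41 (standard error 0.12, adjusted p = 0.0946). The related VEGF receptor gene kdr (0.36), the secreted vessel factor egfl7 (0.55), the junction gene esama (0.52), the signalling adaptor she (0.47) and the vessel surface gene ecscr (0.58) also had positive averages. The averages were near 0 for gpr182 (0.09), a receptor of vessel walls, and for CLDN5 (ENSDARG00000014059, 0.16), a tight-junction gene. Those of ramp2 (-0.05), a partner of adrenomedullin receptors, and of the other CLDN5 identifier (ENSDARG00000043716, -0.01) were 0.05 and 0.08 when libraries were scaled by their totals alone.

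**Figure D3:**
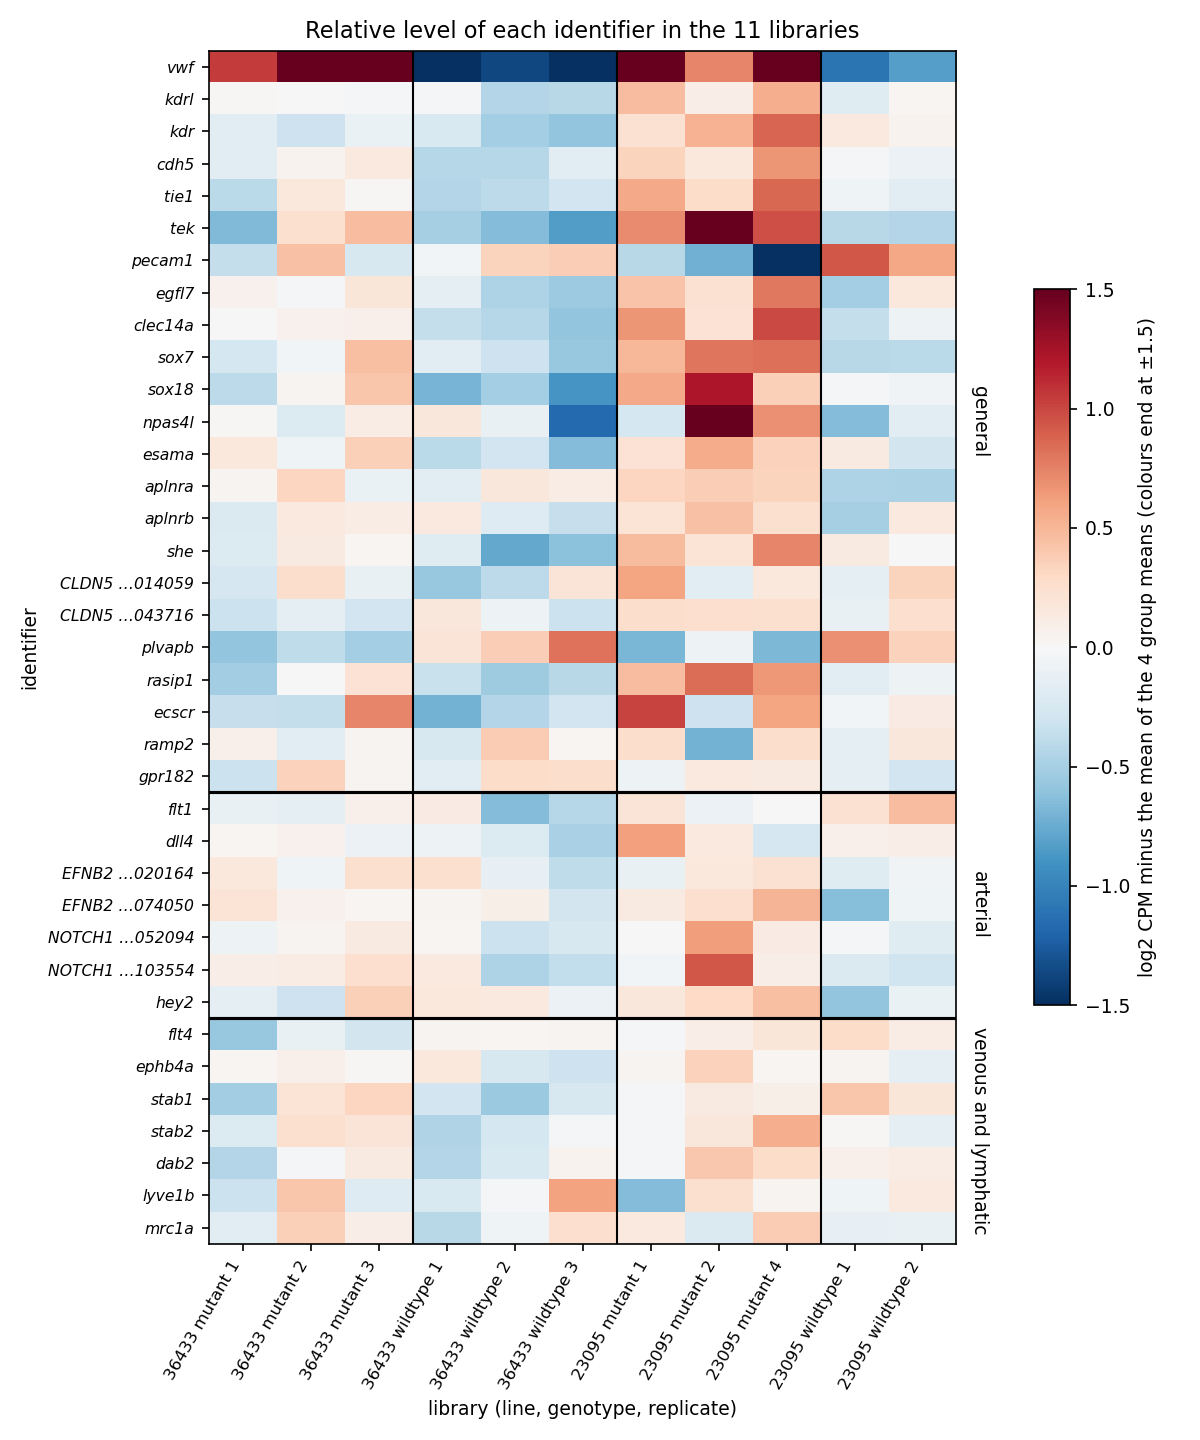
Log2 CPM of 37 of the 38 identifiers (rows, in 3 classes) in each of the 11 libraries (columns), minus the mean of the 4 group means, with colours ending at 1.5 in either direction. General genes are mostly redder in the 23095 mutants and bluer in the 36433 wildtypes, vwf has the widest range, and pecam1 and plvapb run the other way in the 23095 libraries.

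The arterial genes were dll4 and notch1b, ligand and receptor of arterial Notch signalling, hey2, a transcription factor induced by it, efnb2a, the arterial ephrin, and flt1, a VEGF receptor that limits sprouting. No arterial identifier was called, and the averaged log2 fold changes of the 7 ran from -0.04 to 0.51 (standard errors 0.13 to 0.18). The Notch ligand gene dll4 had 13.6, 13.9 and 12.5 CPM in the 36433 mutants, against 12.6, 11.5 and 9.41 CPM in the 36433 wildtypes, and 20.3, 14.6 and 11.1 CPM in the 23095 mutants, against 13.9 and 14.2 CPM in the 23095 wildtypes. The groups overlapped in both lines, and the averaged log2 fold change was 0.19 (standard error 0.16, adjusted p = 0.565).

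The arterial receptor gene flt1 had 6.87, 6.76 and 7.89 CPM in the 36433 mutants, against 8.14, 4.71 and 5.5 CPM in the 36433 wildtypes, and 8.53, 6.99 and 7.45 CPM in the 23095 mutants, against 8.77 and 10.4 CPM in the 23095 wildtypes. Its log2 fold change was 0.23 in line 36433 (standard error 0.22) and -0.32 in line 23095 (standard error 0.24), so the lines differed in sign without a call in either or in their difference (-0.54, standard error 0.33, adjusted p = 0.755). For hey2 the log2 fold changes were -0.08 (standard error 0.22) in line 36433 and 0.65 (standard error 0.25, adjusted p = 0.204) in line 23095.

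Both NOTCH1 identifiers were highest in 23095 mutant replicate 2. ENSDARG00000052094 had 462 CPM there and 239 to 329 CPM in the other 10 libraries, and ENSDARG00000103554 had 475 CPM there and 180 to 296 CPM elsewhere. Their averaged log2 fold changes were 0.30 (standard error 0.13, adjusted p = 0.265) and 0.51 (standard error 0.18, adjusted p = 0.165). Notch1 is also made in the neural tube and the somites, so these levels are not those of arteries alone. The EFNB2 identifiers had averages of 0.20 (ENSDARG00000020164) and 0.39 (ENSDARG00000074050).

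The venous and lymphatic genes were flt4 and ephb4a, receptors of veins, stab1 and stab2, scavenger receptors of venous walls, dab2, an endocytic adaptor that veins use, and lyve1b and mrc1a, surface receptors of venous and lymphatic cells. None was called, and the averaged log2 fold changes of the 7 ran from -0.23 to 0.32 (standard errors 0.11 to 0.25). The receptor gene flt4 had 26.8, 36.8 and 32.8 CPM in the 36433 mutants, against 40.9, 40.6 and 41.0 CPM in the 36433 wildtypes, and 39.0, 42.5 and 44.9 CPM in the 23095 mutants, against 48.2 and 42.8 CPM in the 23095 wildtypes. The 36433 mutants lay under their wildtypes and the 23095 groups overlapped, and the averaged log2 fold change was -0.23 (standard error 0.11, adjusted p = 0.29).

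The libraries held 254, 346 and 333 CPM of stab2 in the 36433 mutants, against 214, 243 and 287 CPM in the 36433 wildtypes, and 288, 330 and 427 CPM in the 23095 mutants, against 296 and 267 CPM in the 23095 wildtypes. The groups overlapped in both lines, and the averaged log2 fold change was 0.32 (standard error 0.14, adjusted p = 0.25). Its paralog stab1 had log2 fold changes of 0.40 in line 36433 and -0.24 in line 23095, whose difference of -0.64 (standard error 0.29, adjusted p = 0.649) was not called. The averages of ephb4a (0.17), dab2 (0.12), mrc1a (0.21) and lyve1b (-0.16) were each less than 2 standard errors from 0. A p over the threshold does not show that these levels were the same in mutants and wildtypes: for lyve1b, with 1.97 to 4.86 CPM over all libraries, the standard error was 0.25.

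As a group, the 38 identifiers leaned towards higher levels in mutants. In line 36433, 30 had a positive log2 fold change, 78.9% against 47.6% of all genes, with a median of 0.25 against -0.02 over all genes. In line 23095, 31 were positive, 81.6% against 51.9% of all genes, with a median of 0.44 against 0.02. On average over the lines 31 were positive (50.4% of all genes) and the median was 0.34, against 0 over all genes, and by class it was 0.49 for the 24 general, 0.29 for the 7 arterial and 0.12 for the 7 venous and lymphatic identifiers. No test was made between the classes.

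Libraries were also compared for overlap. In line 36433, all mutants lay above all wildtypes in 7 identifiers (7.23% of all genes did so) and under them in 2 (6.28% of all genes). In line 23095, with 2 wildtypes, this held for 21 (16.4% of all genes) and 4 (17.4%). Mutants lay above wildtypes in both lines for 7, among them vwf, cdh5, egfl7, clec14a, sox18 and esama, where 2.58% of all genes did so. They lay under wildtypes in both lines for 1, plvapb, where 1.44% of all genes did so. At an unadjusted p under 0.05 stood 11 identifiers in line 36433 (6.75% of all genes) and 19 in line 23095 (16.8%), and 21 in the average (17.4%).

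**Figure D4:**
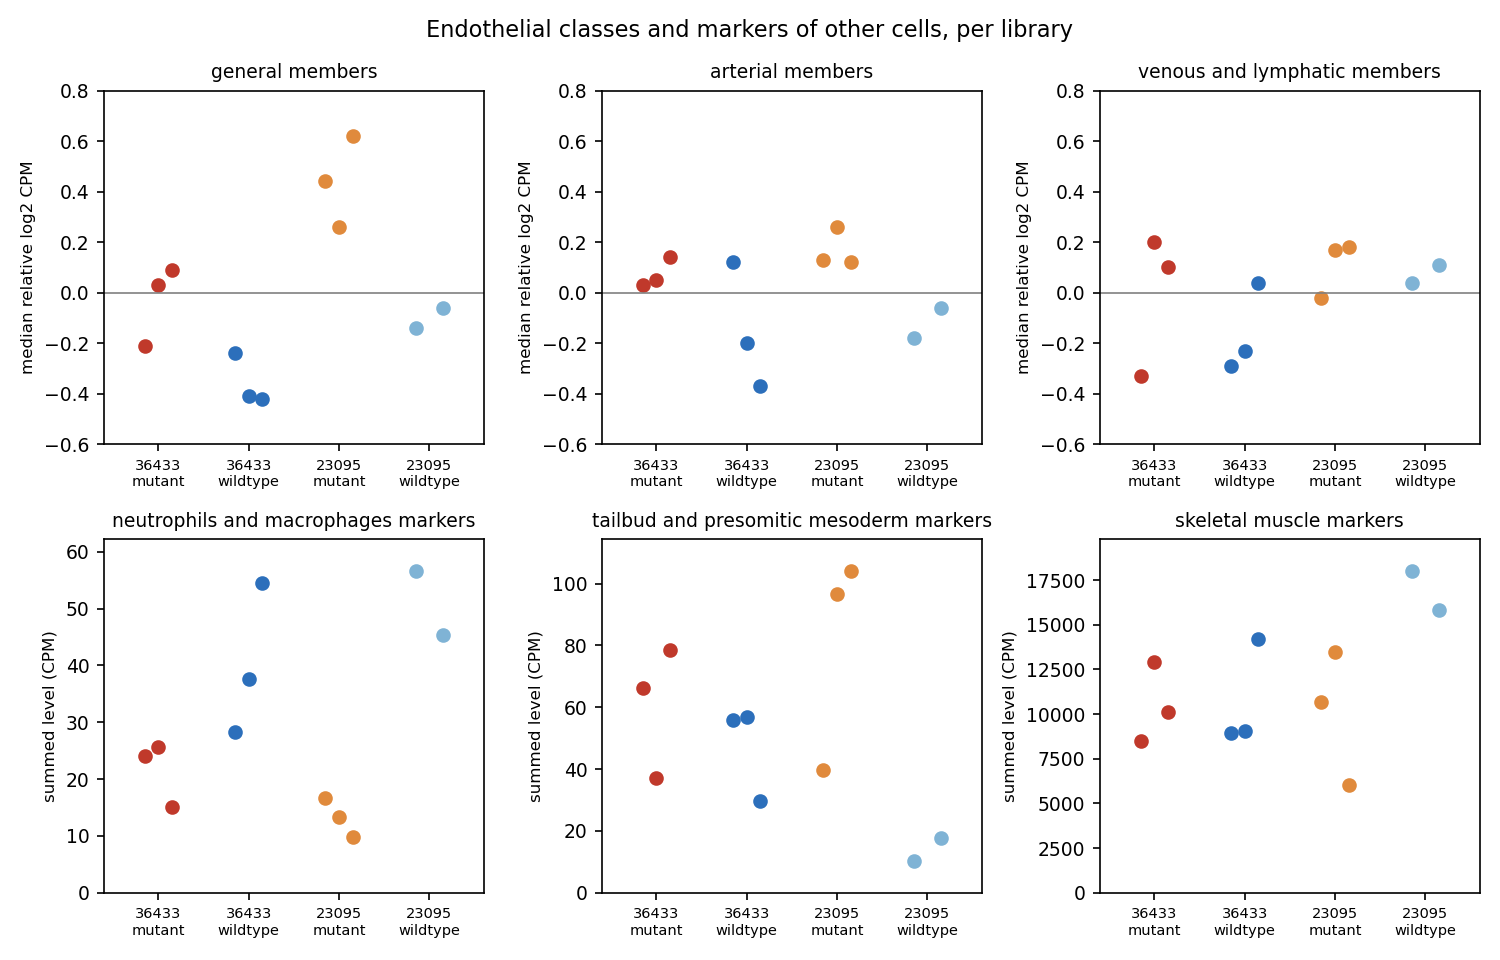
Upper row: median over the identifiers of each class of log2 CPM relative to the mean of the 4 group means, 1 point per library; lower row: summed CPM of marker genes of leukocytes, tailbud and muscle. The 23095 mutants reach 0.26 to 0.62 for the general genes, above all other libraries, the arterial medians of mutants and wildtypes overlap in line 36433 and not in line 23095 (0.12 to 0.26 in mutants, against -0.18 and -0.06 in wildtypes), and the venous and lymphatic ones overlap in both lines; leukocyte sums are lower in all mutants.

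Summed levels of markers of other tissues were also set side by side, without a test of the sums. The summed level of 5 tailbud and presomitic mesoderm genes was 37.1 to 78.6 CPM in the 36433 mutants, against 29.8 to 56.7 CPM in the 36433 wildtypes, and 39.8 to 104 CPM in the 23095 mutants, against 10.2 and 17.8 CPM in the 23095 wildtypes. For 6 muscle genes it was 8490 to 12900 CPM in the 36433 mutants, against 8930 to 14200 CPM in the 36433 wildtypes, and 6010 to 13500 CPM in the 23095 mutants, against 15800 and 18000 CPM in the 23095 wildtypes. These 2 sums overlapped in line 36433 and did not in line 23095, where most endothelial calls were made. Of the 5 tailbud genes, edgeR called 3 as higher in line 23095 and DESeq2 called 5. Of the 6 muscle identifiers, edgeR called 1 as lower there and DESeq2 called 3. Over all genes edgeR called 0.694% as higher and 0.934% as lower in that line, and DESeq2 called 427 and 553 genes. Neither tool called a tailbud or muscle identifier in line 36433. In line 36433 only, mutants and wildtypes did not overlap for notochord (529 to 562 against 435 to 517 CPM) and mural cells (537 to 554 against 555 to 569 CPM). Most of the notochord sum was col8a1a, and the other identifiers of that list overlapped. Most of the mural sum was NOTCH3, and every mural identifier overlapped on its own. No identifier of these lists was called in this line by DESeq2 or by edgeR, which called 0.168% of all genes. Of all single genes, 7.23% were higher and 6.28% lower without overlap in this line. In line 23095 only, they did not overlap for epidermis (16300 to 17900 against 20900 and 22700 CPM) and spinal cord (259 to 306 against 242 and 254 CPM). Most of the epidermis sum was krt4, and cyt1 ran with it. On the same list krt5 ran the other way without overlap (859 to 1070 against 731 and 755 CPM), and TP63 overlapped. No identifier of these lists was called in this line by DESeq2 or by edgeR, which called 1.63% of all genes. Of all single genes, 16.4% were higher and 17.4% lower without overlap in this line. Erythroid and pronephros sums overlapped in both lines. Of the 7 pronephros identifiers, edgeR and DESeq2 each called 1 as lower in line 23095 and 1 on average. By edgeR 0.934% and 1.03% of all genes were lower there. CUBN of that list had 22.3, 18.5 and 12 CPM in the 23095 mutants, against 36.9 and 39.4 CPM in the 23095 wildtypes. In line 36433 no pronephros identifier was called by either tool. The part of these tissues in the endothelial calls was not tested. For 6 identifiers of posterior hox genes, which follow position along the tail, the sums of all groups overlapped. They were 124 to 153 CPM in the 36433 mutants, against 116 to 161 CPM in the 36433 wildtypes. In line 23095 they were 112 to 166 CPM in the mutants, against 111 and 126 CPM in the wildtypes. Between the wildtypes of the lines, 2 of the 6 had an unadjusted p under 0.05 (13.7% of all genes), and none was called. There hoxd13a had 2.97 and 6.44 CPM in line 23095, against 7.95 to 12.6 CPM in line 36433. For hoxa13a the values were 6.63 and 9.09 CPM, against 9.68 to 15 CPM. The other hox identifiers overlapped between the wildtypes.

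The 23095 and 36433 groups were then compared at equal genotype. Between the wildtypes (23095 against 36433) none of the 38 was called, where 0.393% of all genes were; 6 had an unadjusted p under 0.05 (13.7% of all genes), and DESeq2 called none. In these wildtypes 26 identifiers were higher in line 23095 (48.5% of all genes), with a median log2 difference of 0.22, and vwf was 2.24-fold higher there (log2 standard error 0.54, adjusted p = 0.368). Between the mutants none was called, where 1.13% of all genes were. At an unadjusted p under 0.05 stood 14 (13.8% of all genes). DESeq2 called 4 between the mutants, where it called 602 of the 20886 genes tested. Here 35 of 38 were higher in the 23095 mutants (52.3% of all genes), with a median of 0.30, and kdr had the smallest p (0.76, standard error 0.17, adjusted p = 0.0515).

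A test of the difference of the mutant effects (23095 minus 36433) called none of the 38, and 0.00958% of all genes. At an unadjusted p under 0.05 there were 5 (7.59% of all genes), namely pecam1, aplnra, sox7 (0.71), hey2 (0.73) and stab1, and DESeq2 called none. The endothelial effects were therefore not shown to differ between the lines, and the difference was positive for 25 of 38 (52.8% of all genes). For vwf the difference was -0.82 (standard error 0.65), and for plvapb -0.02 (standard error 0.31).

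In the authors' deposited table of line 36433, 1 of the 38 identifiers was higher at an adjusted p under 0.05, vwf with a log2 fold change of 2.35, and 1 was lower, plvapb with -0.87 (adjusted p = 0.0055). In the authors' deposited table of line 23095, 8 were higher (among them vwf, tie1, tek, clec14a, sox7, aplnra and rasip1) and 2 lower (pecam1 and plvapb). The authors' deposited table gave 1.89 for vwf and 1.26 for tek in that line, where the fit here gave 2.85 and 1.56. The processing notes name DESeq2 without its role, so deposited and fitted fold changes are not on a known common scale. The share of all genes past this threshold in the deposited tables was not computed, so these counts have no background beside them.

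Other genes of vessel pathways, 79 identifiers in 6 lists, were set beside these. In line 36433 none of the 79 was called, and 14 had an unadjusted p under 0.05 (6.75% of all genes). DESeq2 called 2 there, both higher, where it called 85 of all genes as higher. In line 23095, 4 were higher, 5.06% of the 79 against 0.694% of all genes: dlc, a Notch ligand that somites use, with a log2 fold change of 0.89 (standard error 0.20), the vessel master factor gene etv2 (etsrp in the table) with 1.02 (standard error 0.23), FLI1 and LMO2. Averaged over both lines, 6 were higher and 1 lower, 8.86% of the 79 against 2.33% of all genes called. Of the 20 vessel transcription factors, 5 were higher (25%, against 1.3% of all genes) and none lower, with a median of 0.49 against 0 over all genes.

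The ETS-family gene fli1b (fli1rs in the table, ENSDARG00000040080) had 12.1, 15.7 and 17.8 CPM in the 36433 mutants, against 7.31, 8.47 and 8.70 CPM in the 36433 wildtypes, and 15.7, 16.5 and 20.4 CPM in the 23095 mutants, against 11.3 and 11.1 CPM in the 23095 wildtypes. Mutants lay above wildtypes in both lines, and it rose by 0.77 on average (standard error 0.14, adjusted p = 0.0142), a call lost without either 23095 wildtype (adjusted p up to 0.0897). The flow-responsive factor gene klf2a had 26.9, 26.1 and 32.7 CPM in the 36433 mutants, against 17.3, 19.4 and 16 CPM in the 36433 wildtypes, and 20.0, 12.8 and 26.5 CPM in the 23095 mutants, against 8.96 and 12.9 CPM in the 23095 wildtypes. The 23095 mutant replicate 2 lay just under a wildtype of its line, and the other mutants above. It rose by 0.79 on average (standard error 0.18, adjusted p = 0.0375), but 9 of the 11 leave-one-out fits lost the call (adjusted p up to 0.236), all but those without 36433 wildtype replicate 1 and 23095 mutant replicate 2.

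SOX17, related to sox7 and sox18, stood at 0.518 to 2.26 CPM in mutants and 0.202 to 0.746 CPM in wildtypes, and rose by 2.05 on average (standard error 0.43, adjusted p = 0.0288). Its call was lost in 7 of 11 such fits (adjusted p up to 0.18), without 36433 mutant replicate 1 or 3, 36433 wildtype replicate 2 or 3, 23095 mutant replicate 4, or either 23095 wildtype. The haematopoietic and vessel cofactor gene LMO2 rose by 1.09 (adjusted p = 0.0101) and FLI1 by 0.69 (adjusted p = 0.0115), each call lost without 23095 wildtype replicate 1 (adjusted p = 0.0711 and 0.0836). LMO2 and FLI1 are also genes of early blood cells.

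Outside the factors, calls were few. Of the 13 identifiers of VEGF and angiopoietin signalling, 1 was higher, a copy of the co-receptor gene NRP2 (ENSDARG00000096546, 0.41, adjusted p = 0.0441), whose call was lost in 9 of 11 leave-one-out fits; the angiopoietin ligand gene ANGPT1 had -0.40 (adjusted p = 0.116). Of the 12 of apelin, adrenomedullin and chemokine signalling, 1 was lower, a copy of the chemokine scavenger gene ACKR3 (ENSDARG00000062478), which fell by 1.03 (adjusted p = 0.035; lost in 7 of 11 such fits), and the apelin receptor ligand gene apela had 0.39 (adjusted p = 0.244). None of the 11 identifiers of arterial Notch signalling was called on average, with dlc at 0.52 (adjusted p = 0.0551) and HEY1 at 0.32 (adjusted p = 0.157). Of these 11, 3 had an unadjusted p under 0.05, where 17.4% of all genes did. DESeq2 called 1 of them, where it called 1083 of all genes. Nor was any of the 16 of vessel junctions and lumen called (5 and 1 by the same counts). There LDB2 (ENSDARG00000019579) had 0.47 (adjusted p = 0.0871) and S1PR1 had -0.46 (adjusted p = 0.171).

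The 7 lymphatic and clotting genes of vessels gave no call by edgeR or DESeq2, with 3 at an unadjusted p under 0.05 on average (17.4% of all genes). Among them was f8, the gene of the clotting factor that von Willebrand factor carries in blood. It had 1.25, 1.56 and 1.23 CPM in the 36433 mutants, against 0.385, 0.740 and 0.640 CPM in the 36433 wildtypes, and 1.43, 1.30 and 0.790 CPM in the 23095 mutants, against 0.694 and 0.678 CPM in the 23095 wildtypes. All mutants lay above all wildtypes at these low levels (2.58% of all genes lay above in both lines), and the averaged log2 fold change was 0.97 (standard error 0.31, adjusted p = 0.131). The plasminogen activator gene PLAT had 0.58 (adjusted p = 0.191).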

How the data were processed

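Total RNA was sequenced as 11 libraries; the labels' protocols give a stranded total RNA kit with removal of ribosomal RNA. The authors deposited 1 table of raw counts per Ensembl gene identifier, unnormalized whole numbers, per the file headers. The authors also deposited tables of comparisons, with fold changes on the log2 scale and adjusted p-values per the file headers, of which the within-line tables were used. The submitters' processing notes name cutadapt 1.16, STAR 2.7.2c, DESeq2 1.22.2 and the build GRCz11, without roles; the counting tool, its annotation and its use of strand are not given in the sources used here, so antisense and overlapping genes cannot be told apart. Symbols came from a gene name table (21998 of 23617 identifiers had one). No genome sequence or annotation of this build was used, so positions, gene lengths and promoter sequences were not analysed here.

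Counts were filtered with filterByExpr (minimum count 10, minimum total 15), scaled with TMM factors and fitted in edgeR 4.0.16 under R 4.3.3 (glmQLFit, glmQLFTest, two-sided) as 4 group means over 11 libraries (7 residual degrees of freedom). P-values were adjusted by Benjamini-Hochberg over the 20886 genes tested. Standard errors come from the F statistic. The code was tested on simulated data. Counting precision follows the totals of 8204459 to 17195875 counts.

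The fits were repeated with DESeq2 1.42.0, with its size factors, with totals as the only scaling, unfiltered, with at least 1 CPM in 3 libraries, on the compared groups alone, with a replicate block, and without each library in turn. Members, lists and tests were chosen with earlier results of these data known. Members called in any comparison of mutants with wildtypes, and the best known of each class, were described library by library; of the other pathway lists, up to 2 genes with the smallest p in the averaged comparison and the called ones were named. Other genes were named with their values known. Values of 1 called identifier are not reported here, in text or figures; it stays in all counts. List genes with no match in the table (angpt2a, hlx1, lyve1a, procr and some marker genes) were not analysed here.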

Additional observations from a re-analysis of the deposited data

How the results depend on the processing

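Of 2269 values of single genes under other settings, 2088 kept their direction and their side of the threshold, 120 were no longer past it, 34 were newly past it and 27 changed sign, all of them values that were not called. By library totals the median log2 fold change of all genes moved by 0.126 in line 23095, 0.09 on average and 0.054 in line 36433. For low genes such as vwf in wildtypes (6 to 24 counts), SOX17 and npas4l, depth limits the precision of a fold change.

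The number of the 38 identifiers called was 2 in line 36433, 10 in line 23095, 13 on average and 4 between the mutants with DESeq2, and 0 in line 23095 when the compared groups were fitted alone; over all genes DESeq2 gave 124, 980, 1083, 57 (difference of effects), 569 (wildtypes) and 602 (mutants), and the compared groups alone gave 6 in line 23095 and 52 between wildtypes. Whether the replicate numbers pair the libraries cannot be told. Correlations of same-numbered libraries were 0.2, 0.08 and 0.02 in line 36433, against -0.2 to 0.16 for differently numbered ones. In line 23095 the same-numbered ones had -0.08 and -0.18. Each library was centred on its own small group, which forces values of opposite sign, so these correlations cannot exclude a pairing. With a replicate block, the identifiers called were 0 in line 23095 and 3 on average (vwf, tek and plvapb; of the pathway genes named, LMO2 and fli1b were still called and FLI1, SOX17, klf2a, NRP2 and ACKR3 were not), and all genes called were 33 in line 23095, 211 on average, 1 for the difference, 28 between wildtypes and 23 between mutants, with 3 residual degrees of freedom.

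Leaving out 1 library gave 1 identifier in line 36433 in each fit, 0 to 7 in line 23095 (0 without mutant replicate 4 or either wildtype), 1 to 12 on average (1 without 23095 wildtype replicate 1, 12 without 36433 wildtype replicate 1), 0 for the difference and between wildtypes, and 0 to 1 between mutants. Over all genes the counts were 12 to 64 in line 36433, 4 to 619 in line 23095, 56 to 1439 on average, 0 to 4 for the difference, 21 to 301 between wildtypes and 65 to 384 between mutants. A group left with 1 library was assumed to vary like the others. Replicates were also compared in pairs by a chi-square per degree of freedom of the raw counts. This value is larger for less alike libraries but also grows with depth, so pairs of unlike depth are not on a common scale. It was 66.4 and 59.8 for 36433 wildtype replicate 1 against replicates 2 and 3, and 22.6 between those 2. Among the 23095 mutants it was 33.8 to 48.7. The cause of the changes in the counts was not tested.

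Log2 fold changes that changed sign when 1 library was left out had these ranges. In line 36433 they ran from -0.07 to 0.59 for npas4l, -0.06 to 0.15 for aplnra, -0.23 to 0.09 for ramp2, -0.27 to 0.07 for gpr182, -0.31 to 0.06 for hey2, -0.03 to 0.25 for dab2 and -0.43 to 0.14 for lyve1b. In line 23095 they ran from -0.12 to 0.39 for CLDN5 (ENSDARG00000014059), -0.16 to 0.30 for dll4 and -0.32 to 0.07 for lyve1b. On average they ran from -0.09 to 0.09 for CLDN5 (ENSDARG00000043716), -0.13 to 0.07 for ramp2, -0.01 to 0.16 for gpr182 and -0.12 to 0.08 for flt1. By library totals, flt4 was 0.01 in line 23095, and the averages of CLDN5 (ENSDARG00000043716), ramp2 and flt1 were 0.08, 0.05 and 0.04; with the replicate block that CLDN5 average was 0.01.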

Other observations

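The symbol DAB2, the upper-case form of the listed dab2, is carried by a second identifier (ENSDARG00000053091) that the list match did not take. It had 105, 108 and 121 CPM in the 36433 mutants, against 103, 98.0 and 91.6 CPM in the 36433 wildtypes, and 124, 144 and 140 CPM in the 23095 mutants, against 103 and 123 CPM in the 23095 wildtypes, and its averaged log2 fold change was 0.23 (standard error 0.10, adjusted p = 0.245). Between the mutants of the lines, 1 of the 79 pathway identifiers was called, 1.27% against 1.13% of all genes, so near the share of all genes. It was the ETS-family vessel factor gene ERG, named here because of that call. ERG had 5.67, 9.71 and 7.34 CPM in the 23095 mutants, against 3.44, 3.19 and 3.48 CPM in the 36433 mutants (log2 difference 1.15, standard error 0.24, adjusted p = 0.0402). The 23095 wildtypes had 4.48 and 4.27 CPM and the 36433 wildtypes 2.5, 1.88 and 2.05 CPM.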
